A study of Mus musculus with 6 samples.

Results

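Manganese enters and leaves cells through a small set of carriers and pumps, and 8 of their genes were followed in mouse cerebellum with and without neuronal *Slc39a8*. They were taken by gene identifier from the 53715 genes of the count table and comprise the importers *Slc39a8*, *Slc39a14*, and *Slc11a2*, the exporters *Slc30a10* and *Slc40a1*, the Golgi proteins *Tmem165* and *Atp2c1*, and the lysosomal pump *Atp13a2*. The RNA came from male C57BL/6 mice (both parental lines are given as C57BL/6J in the methods) that were 4 weeks old, 3 in each genotype. Control mice were labelled WT, and the study elsewhere calls its control mice *Slc39a8* fl/fl. *Slc39a8*-NSKO mice, labelled slc39a8-KO, carried the floxed allele together with *Synapsin I-Cre*, which is driven by a neuronal promoter and can vary between brain regions. The promoter is not meant to act in endothelial cells or glia, and recombination by cell type was not measured here. No other allele or agent was named, and each library was made from the cerebellum of 1 mouse. The counts on genes per mouse lay between 14431260 and 20844267.

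Manganese is a cofactor of enzymes in mitochondria, the cytosol, and the Golgi, and it is toxic in excess, so that cells balance uptake against export and storage. ZIP8, the product of *Slc39a8*, and ZIP14, the product of *Slc39a14*, are closely related members of the ZIP family that bring divalent metals into the cytosol. DMT1, from *Slc11a2*, moves iron and manganese across the plasma membrane and out of endosomes. ZnT10, from *Slc30a10*, exports manganese from the cell, and ferroportin, from *Slc40a1*, is the iron exporter of mammals and has been studied as a second way out for manganese. *Tmem165* and *Atp2c1* serve the Golgi, where glycosyltransferases need the metal. ATP13A2 is a lysosomal ATPase that exports polyamines and whose loss makes cells sensitive to manganese. In people, loss of *SLC39A8* function lowers blood manganese, while loss of *SLC39A14* or *SLC30A10* function lets the metal build up.

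The kinship of the 2 ZIP importers can be read in the codons for the helix that holds their metal site, which are shown because *Slc39a14* was the gene the study considered as a substitute for *Slc39a8*. The sequences are those of the GENCODE M21 transcripts on GRCm38, 5′ to 3′ on the coding strand, and capitals mark the bases at which they differ.
Slc39a8, chr3:135884383-135884606, plus strand: gaggaGttTcctcatgagTtAggGgac
Slc39a14, chr14:70308830-70309779, minus strand: gaggaAttCcctcatgagCtGggAgac
The stretches shared 22 of 27 bases, and none of the 5 differences changed an encoded residue in the 9 codons. Both genes divide this helix between 2 exons at the same base, with 22 bases in the first exon and 5 in the next, separated by an intron of 197 bp in *Slc39a8* and of 923 bp in *Slc39a14*. The codons start at codon 345 of 462 in the longest *Slc39a8* reading frame and at codon 373 of 489 in *Slc39a14*. The helix was encoded by all 4 coding transcripts annotated for *Slc39a8*, and by 3 of 8 for *Slc39a14*. The longest stretch that any annotated transcript of one gene shared with one of the other was 25 bases, against reads of 150 bases, and the counts of both genes were whole numbers in every mouse.

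Of the 8 genes, *Slc39a8* itself differed most between the genotypes, and none of the 8 passed the test across all genes. Every gene was abundant enough to be among the 16330 tested. At an adjusted p below 0.05 in edgeR's quasi-likelihood test, 0 of 8 were called, against 0.098% of all genes tested (0.0735% lower and 0.0245% higher in *Slc39a8*-NSKO mice), and at an unadjusted p below 0.05 there were 2 of 8, *Slc39a8* and *Slc40a1*, against 5.39% of all genes. Both were lower in *Slc39a8*-NSKO mice, against 3.14% of all genes. In 3 of 8 genes the 2 genotypes had no overlapping values, against 10.3% of all genes. These were *Slc39a8*, *Slc40a1*, and *Tmem165*, and all 3 were lower in *Slc39a8*-NSKO mice, against 5.26% of all genes. The median log2 fold change was −0.0563 over the 8 genes and 0.0011 over all genes tested. Reads are given below as CPM, that is counts scaled by library size with TMM factors (edgeR's cpm), and as means ± SD.

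**Figure D1:**
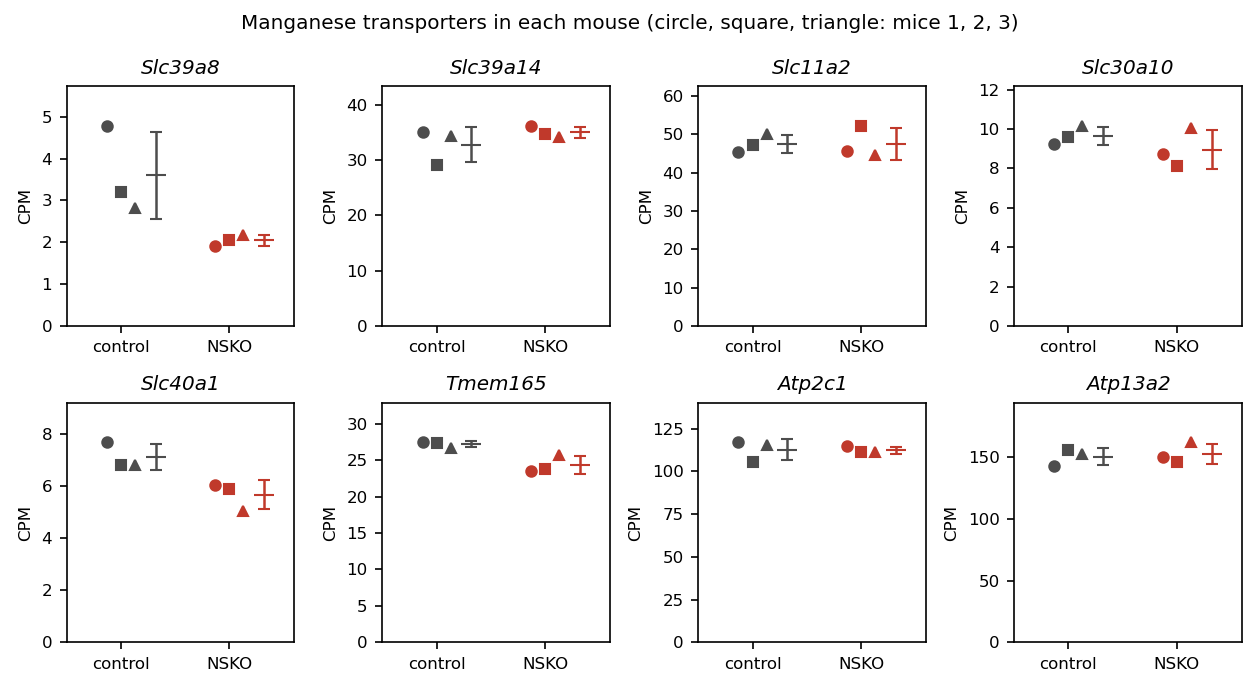
CPM of the 8 genes (y axes, each from 0) in 3 control and 3 *Slc39a8*-NSKO mice (NSKO); circles, squares and triangles are mice 1, 2 and 3, and the bars beside them are mean ± SD. The genotypes are apart for *Slc39a8*, *Slc40a1* and *Tmem165* and overlap in the other 5 panels.

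*Slc39a8* (ENSMUSG00000053897.15), the targeted gene, occupies bases 135825279 to 135888572 of chromosome 3 (GRCm38, plus strand). Control mice 1 to 3 had 4.778, 3.199, and 2.827 CPM, and *Slc39a8*-NSKO mice 1 to 3 had 1.902, 2.054, and 2.178 CPM. Every *Slc39a8*-NSKO mouse was below every control mouse, with control mouse 1 high in its group. The counts behind these values were small, 189 in the 3 control and 119 in the 3 *Slc39a8*-NSKO mice together. The exact Poisson 95% interval, which covers counting error only, was 3.88 to 5.82 CPM for control mouse 1 and 2.05 to 3.80 CPM for control mouse 3. For control mouse 2 it was 2.34 to 4.27 CPM. For *Slc39a8*-NSKO mice 1 to 3 it was 1.35 to 2.61, 1.47 to 2.80, and 1.563 to 2.955 CPM. These intervals lay below that of control mouse 1, and each overlapped those of control mice 2 and 3. The *Slc39a8*-NSKO mice had a coefficient of variation of 6.75%, below the 16.2% that counting alone gives at 38 counts, and the control mice one of 28.8%.

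The log2 fold change of *Slc39a8* was −0.83 (SE 0.237, 95% interval −1.34 to −0.32), and its edgeR adjusted p was 0.534. On the linear scale the interval runs from 39.4% to 79.9% of the control level. By its unadjusted p of 0.00359 in edgeR's test the gene ranked 109 of the 16330. Without control mouse 1 the log2 fold change was −0.56. The study reported *Slc39a8* as downregulated in its own analysis of this RNA-Seq. By quantitative PCR, a separate measurement, it reported significantly lower *Slc39a8* mRNA in the brain than in *Slc39a8* fl/fl controls. The count of a gene adds reads from all its exons, and which exons lie between the loxP sites is not given in the sources used here. Reads from a shortened transcript of the deleted allele would be counted too, so that the count need not measure intact *Slc39a8*. In whole tissue, fewer cells of a type and less RNA per cell cannot be told apart. The 3 annotated genes that overlap *Slc39a8* had at most 3 counts in a mouse and shared no exon sequence with it.

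The study named brain endothelial cells as a site of high *SLC39A8* expression, and endothelial markers were therefore measured beside the gene. All 10 listed markers, among them *Cldn5* and *Cdh5*, were tested and 0 of 10 were called. Their summed level was 281, 272, and 251 CPM in control mice 1 to 3 and 249, 270, and 251 CPM in *Slc39a8*-NSKO mice 1 to 3. The genotypes overlapped, and the control mouse with the most *Slc39a8* also had the highest sum. The median log2 fold change of the 10 was −0.0651 (all genes 0.0011), and their part in the *Slc39a8* values was not tested. The 6 granule cell markers, among them *Gabra6*, summed to between 5036 and 5226 CPM in control and between 5038 and 5452 CPM in *Slc39a8*-NSKO mice. The 6 Purkinje cell markers, among them *Calb1*, summed to between 6535 and 7412 CPM in control and between 7111 and 7727 CPM in *Slc39a8*-NSKO mice. The 6 astrocyte and Bergmann glia markers summed to between 3782 and 4022 CPM in control and between 3991 and 4107 CPM in *Slc39a8*-NSKO mice, and the 5 pericyte markers to between 160 and 173 CPM and between 154 and 181 CPM. These lists overlapped between the genotypes with none of their genes called, and the neuronal markers match the labelled cerebellum. Of the 3 control mice, mouse 1 also had the highest granule, Purkinje, and pericyte sums, and it had the lowest astrocyte sum. Among the astrocyte markers the genotypes were apart for *Gfap*, an intermediate filament, with 202 ± 35.1 CPM in control and 267 ± 14.2 CPM in *Slc39a8*-NSKO mice (SD, n = 3 each, edgeR adjusted p = 0.301). They were also apart for the water channel *Aqp4*, with 399 ± 36.2 CPM and 457 ± 27.1 CPM (edgeR adjusted p = 0.802). The part of these cells in the *Slc39a8* values was not tested.

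*Slc39a14* (ENSMUSG00000022094.15), on the minus strand of chromosome 14 from 70303469 to 70351425, was examined because the study raised it as a transporter that might make up for *Slc39a8*. Apart from its RNA-Seq results, the study reported the *Slc39a14* transcript as higher in the cerebellum of male *Slc39a8*-NSKO mice, without statistical significance. For *Slc30a10*, *Slc11a2*, and *Slc40a1* transcripts it reported no substantial change in the same place. In the counts used here *Slc39a14* had 35.1, 29.1, and 34.3 CPM in control mice 1 to 3 and 36.2, 34.7, and 34.3 CPM in *Slc39a8*-NSKO mice 1 to 3. The genotypes overlapped, and control mouse 2 alone lay below the rest. A log2 fold change of 0.09 was estimated (SE 0.079, edgeR adjusted p = 0.994). Its 95% interval reached from −0.08 to 0.26, or from 94.6% to 119.7% of the control level, so that levels above 119.7% lay outside it. With control mouse 2 left out the log2 fold change was 0.01.

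For each read on *Slc39a8*, control mice 1 to 3 had 7.31, 9.02, and 12.01 reads on *Slc39a14*, and *Slc39a8*-NSKO mice 1 to 3 had 18.8, 16.7, and 15.6. The lowest ratio among *Slc39a8*-NSKO mice exceeded the highest among the controls. Its log2 value differed by 0.87 between the genotypes (3.21 ± 0.359 in control and 4.08 ± 0.138 in *Slc39a8*-NSKO mice, SD, n = 3 each), with p = 0.1 by a two-sided exact permutation test, below which 3 mice against 3 cannot go. This ratio within a mouse does not depend on the library size. Its denominator is the targeted gene, for which the genotypes were already apart. The log2 fold change was −0.83 for *Slc39a8* and 0.09 for *Slc39a14*. The ratio therefore mostly repeats the lower *Slc39a8* and does not by itself show a rise of *Slc39a14*.

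*Slc11a2* (ENSMUSG00000023030.16), on the minus strand of chromosome 15 from 100387898 to 100425072, held 45.3 to 50.1 CPM in control and 44.7 to 52.2 CPM in *Slc39a8*-NSKO mice, with overlap. Its log2 fold change was −0.0011 (95% interval −0.16 to 0.16), and it took either sign in other fits. It overlaps the exons of *Gm5475* on the other strand by 402 bp, and that gene had at most 7 counts in a mouse. Divided by the length of their exons, *Slc11a2* made up 64.4% to 70.1% of the 3 importers' summed level in control and 66.1% to 69.8% in *Slc39a8*-NSKO mice. *Slc39a14* made up 26.0% to 30.01% in control and 27.9% to 31.6% in *Slc39a8*-NSKO mice. *Slc39a8* made up 5.63%, 3.93%, and 3.21% in control mice 1 to 3 and 2.29%, 2.28%, and 2.69% in *Slc39a8*-NSKO mice 1 to 3, the lowest share in each mouse. These shares depend on the length used. Per kb of exon the control means of *Slc11a2*, *Slc39a14*, and *Slc39a8* were 7.48, 3.11, and 0.470 CPM. Per kb of the longest coding transcript they were 10.77, 6.67, and 1.02 CPM. The sum of the 3 importers was 11.1 ± 0.439 CPM per kb of exon in control and 11.1 ± 0.627 CPM per kb of exon in *Slc39a8*-NSKO mice (SD, n = 3 each, exact two-sided permutation test, p = 1), and the genotypes overlapped. Because *Slc39a8* is so small a share of this sum, the sum could hardly show its fall.

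**Figure D2:**
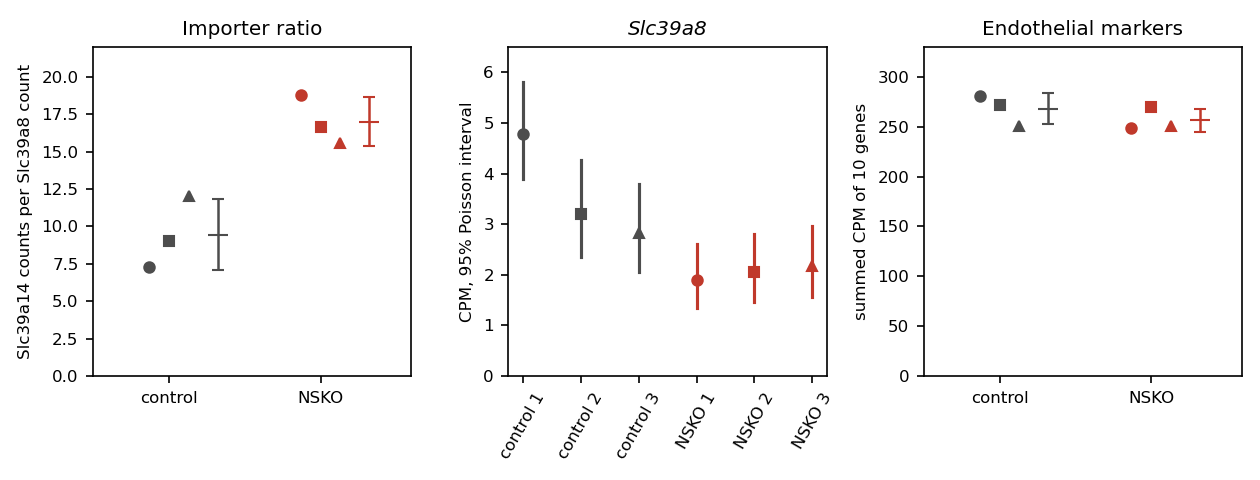
Left, *Slc39a14* counts per *Slc39a8* count in each mouse; middle, *Slc39a8* CPM with exact Poisson 95% intervals; right, summed CPM of 10 endothelial markers; symbols mark mice 1 to 3 and the bars at the left and right are mean ± SD. The ratio lies between 7.31 and 12.01 in control and between 15.6 and 18.8 in *Slc39a8*-NSKO mice (NSKO), while the endothelial sums overlap.

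Among the exporters, *Slc40a1* was lower in every *Slc39a8*-NSKO mouse and *Slc30a10* overlapped. *Slc40a1* (ENSMUSG00000025993.10), on the minus strand of chromosome 1 from 45908068 to 45926523, had 7.67, 6.82, and 6.81 CPM in control mice 1 to 3 and 6.06, 5.90, and 5.05 CPM in *Slc39a8*-NSKO mice 1 to 3. The counts were 95 to 159 in a mouse. The mean in *Slc39a8*-NSKO mice was 79.9% of the control mean, a log2 fold change of −0.33 (SE 0.142, 95% interval −0.63 to −0.02), and in edgeR its p was 0.0374 before and 0.908 after adjustment, which did not pass. Leaving out single mice gave −0.38 to −0.25, and edgeR's unadjusted p was then 0.128 without control mouse 1, 0.0506 without control mouse 3, 0.0516 without *Slc39a8*-NSKO mouse 2, and 0.136 without *Slc39a8*-NSKO mouse 3.

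Ferroportin is made by several cell types of the brain, and marker transcripts of brain and other cell types were measured beside *Slc40a1*. The 6 microglia markers summed to 68.0 to 75.5 CPM in control and 78.8 to 82.5 CPM in *Slc39a8*-NSKO mice, without overlap. Of these 6, 5 had a positive and 1 a negative log2 fold change. The genotypes were apart for 1 of them, *Csf1r*, with 25.9 ± 1.26 CPM in control and 30.9 ± 2.44 CPM in *Slc39a8*-NSKO mice (edgeR adjusted p = 0.671). The 6 oligodendrocyte markers summed to 7207 to 8272 CPM in control and 6732 to 8126 CPM in *Slc39a8*-NSKO mice and overlapped. The 6 choroid plexus markers ran from 778 to 1119 CPM in control and from 906 to 1561 CPM in *Slc39a8*-NSKO mice, and 5 of the 6 had a positive log2 fold change. The edgeR p before adjustment was below 0.05 for 3 of them, with log2 fold changes of 0.96 for *Folr1*, whose genotypes were apart, 0.42 for *Kl*, and 0.35 for *Clic6*, and edgeR adjusted p of 0.228, 0.908, and 0.838. The 5 erythroid markers ran from 234 to 535 CPM in control and from 349 to 556 CPM in *Slc39a8*-NSKO mice. None of the genes of these 4 lists was called, and their part in the *Slc40a1* values was not tested. Of the 6 heart muscle markers, 5 were tested and 3 were called higher in *Slc39a8*-NSKO mice, against 0.0245% of all genes tested. These were *Myh6*, *Actc1*, and *Tnnt2*, each below 5 CPM on average, with log2 fold changes of 4.43, 3.05, and 2.15. *Myl2* had 2.76 and was not called (edgeR adjusted p = 0.0628). Of the 5 tested, 4 had a positive and 1 a negative log2 fold change. *Ryr2*, which neurons also express, made up nearly all of that list's sum, which was 208 to 238 CPM in control and 211 to 238 CPM in *Slc39a8*-NSKO mice, and its part in the values of the 8 genes was not tested.

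*Slc30a10* (ENSMUSG00000026614.6), on the plus strand of chromosome 1 from 185454848 to 185468762, had 9.22, 9.60, and 10.2 CPM in control mice 1 to 3 and 8.71, 8.11, and 10.04 CPM in *Slc39a8*-NSKO mice 1 to 3. *Slc39a8*-NSKO mouse 3 reached the control range and the other 2 lay below it. A log2 fold change of −0.11 was estimated (SE 0.125, 95% interval −0.38 to 0.16, edgeR adjusted p = 0.994). Its counts were not whole in any of the 6 mice. It shares 533 bp of exon sequence with *Gm2061*, a noncoding gene on the other strand that was given 15.8 to 27.5 counts in a mouse, against 138 to 191 for *Slc30a10*, so that its value carries the uncertainty of how those reads were divided.

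Neither Golgi gene passed the test, and the genotypes were apart for *Tmem165* and overlapped for *Atp2c1*. *Tmem165* (ENSMUSG00000029234.13) lies on the plus strand of chromosome 5 from 76183880 to 76209245 and encodes a protein whose loss disturbs glycosylation. Control mice 1 to 3 had 27.4, 27.4, and 26.7 CPM and *Slc39a8*-NSKO mice 1 to 3 had 23.5, 23.8, and 25.8 CPM, without overlap. The difference was small, 27.2 ± 0.426 CPM against 24.4 ± 1.23 CPM (SD, n = 3 each), and the log2 fold change of −0.16 (SE 0.0739, 95% interval −0.32 to 0.0012) had an edgeR p of 0.0515 before and 0.916 after adjustment. Leaving out single mice gave −0.20 to −0.13. The pseudogene *Apc-ps1*, which shares 59 bp of exon with it, had at most 3 counts in a mouse.

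*Atp2c1* (ENSMUSG00000032570.17), the calcium and manganese ATPase of the Golgi, lies on the minus strand of chromosome 9 from 105403539 to 105527319. It was 112.7 ± 6.15 CPM in control and 112.3 ± 2.08 CPM in *Slc39a8*-NSKO mice (SD, n = 3 each), and the mice of both genotypes fell between 105.6 and 116.9 CPM. The log2 fold change was −0.0053 with a 95% interval of −0.13 to 0.12, and it took either sign in other fits. It shares 1837 bp of exon with *Aste1* on the other strand, which was given 67.0 to 117 counts in a mouse against 1519 to 2422 for *Atp2c1*, and the counts of both were not whole numbers.

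*Atp13a2* (ENSMUSG00000036622.15), on the plus strand of chromosome 4 from 140986873 to 141007330, was the most abundant of the 8. It had 142.2 to 155.8 CPM in control and 145.7 to 161.6 CPM in *Slc39a8*-NSKO mice. The genotypes overlapped, with a log2 fold change of 0.02 (95% interval −0.10 to 0.15), which changed sign when either control mouse 1 or *Slc39a8*-NSKO mouse 3 was left out.

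**Figure D3:**
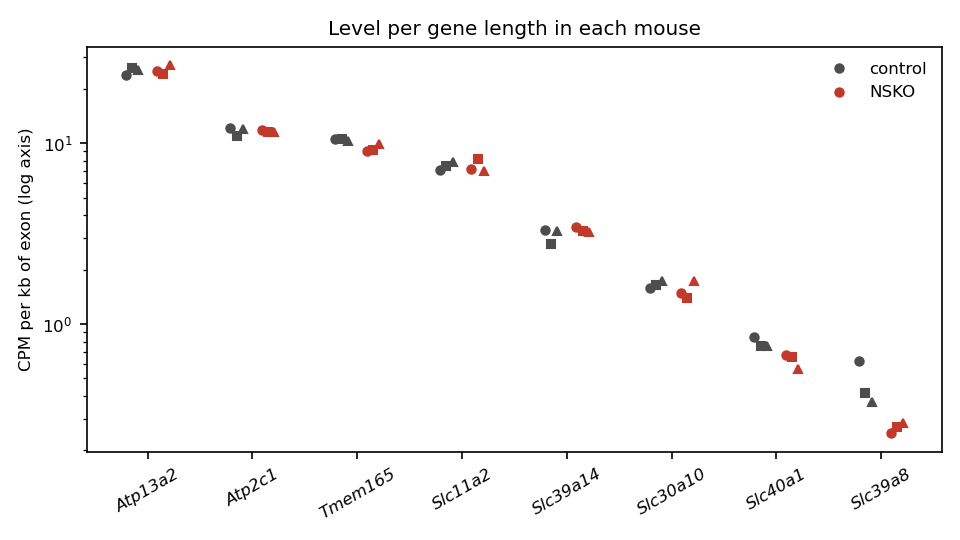
CPM per kb of exon (log axis) of the 8 genes in each mouse, ordered by the control mean; symbols mark mice 1 to 3 of control and *Slc39a8*-NSKO (NSKO). Levels fall from 25 CPM per kb for *Atp13a2* to 0.470 for *Slc39a8* in control mice, and the points of neighbours overlap only for *Slc40a1* and *Slc39a8*.

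Compared per kb of annotated exon, the level in control mice was 25 ± 1.17 CPM per kb for *Atp13a2*, followed by 11.6 ± 0.634 for *Atp2c1*, 10.5 ± 0.165 for *Tmem165*, and 7.48 ± 0.375 for *Slc11a2*. The 3 organelle genes thus had higher levels per kb than the 5 genes of plasma membrane carriers in every mouse. *Slc39a14* had 3.11 ± 0.307, *Slc30a10* 1.65 ± 0.0806, *Slc40a1* 0.789 ± 0.0552, and *Slc39a8* 0.470 ± 0.135 CPM per kb (SD, n = 3 each). Over the 6 mice the ranges of neighbours in this order were apart, except those of *Slc40a1* (0.561 to 0.853) and *Slc39a8* (0.248 to 0.623). With the longest coding transcript as the length, *Slc40a1* and *Slc30a10* changed places and the other 6 kept theirs. Among all genes tested, *Atp13a2* stood at percentile 88.0 of the control level per kb and *Slc39a8* at percentile 12.3. The summed level of the 8 genes was 60.6 ± 0.863 CPM per kb in control and 59.6 ± 1.36 CPM per kb in *Slc39a8*-NSKO mice (SD, n = 3 each), and the genotypes overlapped.

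Other genes of manganese handling, listed by their role, gave no call in either direction. The first list held 9 genes of other routes and of manganese sensing, of which 8 were tested, 5 with a positive and 3 with a negative log2 fold change (median 0.0113). The highest was that of *Tfrc*, the transferrin receptor, through which manganese bound to transferrin can enter. It was 106 ± 4.19 CPM in control and 114 ± 2.46 CPM in *Slc39a8*-NSKO mice (SD, n = 3 each), without overlap, a log2 fold change of 0.11 (edgeR adjusted p = 0.931). The lowest was −0.25 for *Slc11a1*, a relative of *Slc11a2* found in phagocytes, with a 95% interval of −0.94 to 0.44. *Atp2c2*, the relative of *Atp2c1*, was too low to be tested.

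The second list held 9 regulators and partners of the transporters, of which 8 were tested, 4 with a positive and 4 with a negative log2 fold change (median 0.005). *Hamp*, the gene of the hormone that removes ferroportin, was at 0 counts in each of the 6 mice and was not tested. The highest log2 fold change was 0.06 for *Ireb2*, the iron regulatory protein that binds the mRNAs of *Slc40a1* and *Slc11a2*. The lowest was −0.18 for *Mtf1*, the metal-responsive transcription factor, with 41.3 ± 1.57 CPM in control and 36.4 ± 4.64 CPM in *Slc39a8*-NSKO mice (SD, n = 3 each, edgeR adjusted p = 0.916). The third list held 7 enzymes that use manganese, all tested, with 4 positive and 3 negative log2 fold changes (median 0.0003). The enzymes named in the introduction of the study, glutamine synthetase (*Glul*) and manganese superoxide dismutase (*Sod2*), had log2 fold changes of 0.01 (95% interval −0.09 to 0.12) and 0.0003 (95% interval −0.11 to 0.11). The highest was 0.51 for *Arg2* and the lowest −0.21 for *Arg1*, the arginases, both below 1 CPM on average and with 95% intervals of −0.34 to 1.36 and −1.04 to 0.63.

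**Figure D4:**
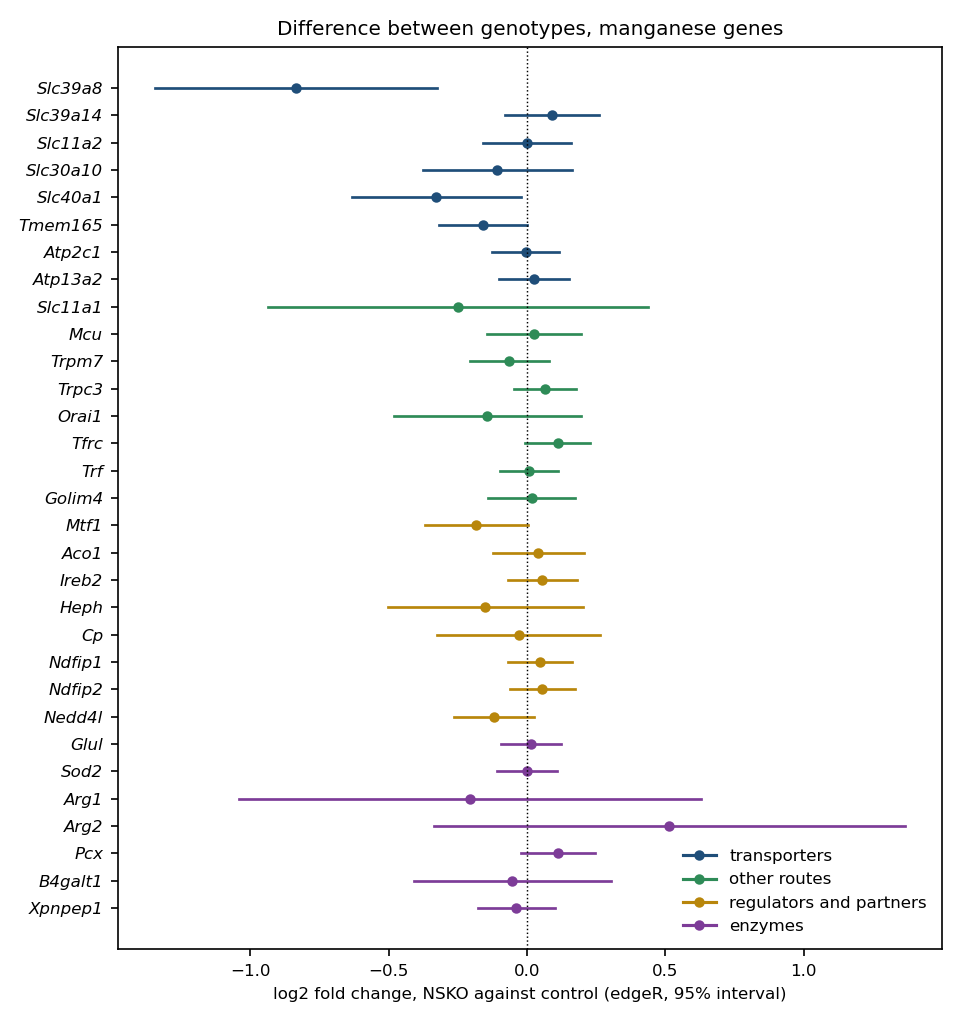
Log2 fold change, *Slc39a8*-NSKO against control (x axis; point and 95% interval of edgeR's quasi-likelihood fit, not adjusted for the number of genes), for the 8 transporters and 23 tested genes of other manganese handling. The intervals of *Slc39a8* and *Slc40a1* lie below 0, and all others include 0.

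Of the 14832 other genes tested with a mean of at least 1 CPM, *Ccn1* and *Nxph1* were among the 3 whose values over the 6 mice were most like those of *Slc39a8*, after centring log2 CPM on each gene's mean. Their root mean square differences from *Slc39a8* were 0.154 and 0.163 on the log2 scale. *Ccn1*, which encodes a matrix protein, had 4.20, 3.69, and 2.83 CPM in control mice 1 to 3 and 1.80, 2.10, and 1.81 CPM in *Slc39a8*-NSKO mice 1 to 3. Its highest value, like that of *Slc39a8*, was in control mouse 1. *Nxph1*, a neurexin ligand, had 12.9 to 16.7 CPM in control and 7.51 to 7.80 CPM in *Slc39a8*-NSKO mice and was called lower (edgeR adjusted p = 0.00621). The likeness rests on 6 values for each gene and is a description only.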

How the data were processed

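RNA-Seq of cerebellum from 3 control and 3 *Slc39a8*-NSKO mice was used. The authors deposited expected counts per gene, not normalized; their processing notes name STAR, RSEM and mm10, with versions and strand setting not given in the sources used here. The labels name a directional library kit and the methods a kit without that word. Positions, names and exon lengths are from GENCODE M21 (GRCm38), which holds 53620 of the 53715 genes. The 92 spike-in entries were left out. Counts were rounded and tested with edgeR 4.0.16 in R 4.3.3 (TMM, filterByExpr, glmQLFTest, no covariate, Benjamini-Hochberg adjustment over 16330 genes, threshold 0.05). Standard errors were derived from that fit, as the absolute log2 fold change divided by the square root of its F statistic. The 95% intervals use these errors with the fit's degrees of freedom, so that they restate the unadjusted test. The *Slc39a14* to *Slc39a8* ratio used a pseudocount of 0.5 and an exact permutation test; patterns used log2 of CPM plus 0.01. The transporters and lists were chosen with earlier results of these data known. Genes named are the 8 transporters, genes overlapping them, the extremes of each manganese list, any called gene of those lists, and the 3 nearest patterns, of which 1 is not reported here; *Glul*, *Sod2*, *Atp2c2*, *Hamp*, *Ryr2* and single markers were named after their values were seen. Alternatives were DESeq2 1.42.0, limma-voom (limma 3.58.1), RLE, library size alone, no filter, at least 10 counts in every mouse, counts not rounded, a replicate block, and each mouse left out. The fits were tested on simulated data.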

Additional observations from a re-analysis of the deposited data

How the results depend on the processing

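No transporter and none of the other manganese genes passed an adjusted p below 0.05 in any of the 14 alternative fits, and the 2 transporters at an unadjusted p below 0.05, a threshold chosen after seeing the data, were *Slc39a8* and *Slc40a1*. At that threshold *Slc39a8* passed in all 14 and *Slc40a1* in 8 of 14. The unadjusted p of *Slc40a1* was 0.106 with DESeq2, 0.0515 with edgeR and no filter, and 0.0506 to 0.136 in edgeR without control mouse 1 or 3 or *Slc39a8*-NSKO mouse 2 or 3, and *Tmem165* had 0.0351 without *Slc39a8*-NSKO mouse 3. The log2 fold changes of *Slc39a8*, *Slc40a1*, *Tmem165*, *Slc30a10* and *Slc39a14* kept their sign in all 14. For *Slc39a8* the adjusted p lay between 0.0764, with no filter, and 1, with DESeq2, and the log2 fold change between −0.98 and −0.56 with each mouse left out; without control mouse 1 it was −0.56. The ratio of *Slc39a14* to *Slc39a8* differed by 0.70 to 1.06 on the log2 scale with each mouse left out. Genes close to 0 changed sign. *Slc11a2* gave 0.0011 with DESeq2, 0.0039 with library size alone, 0.0047 with no filter, and −0.0738 to 0.0409 with each mouse left out (0.0392 and 0.0299 also where the sign changed). *Atp2c1* gave 0.0003 with no filter and −0.0486 to 0.0236 with each mouse left out (also 0.0142, 0.0032 and 0.0028 where the sign changed). *Atp13a2* gave −0.0191 to 0.0562 with each mouse left out (also −0.0127 where the sign changed). The cause was not tested. The number of genes called over the whole table was 16, and 37 with DESeq2, 178 with no filter, 11 with at least 10 counts in every mouse, and 9 to 38 with each mouse left out. Whether replicate numbers pair the mice is not known. The deviations of same-numbered mice correlated at 0.142, 0.116 and 0.01, and those of differently numbered mice at −0.177 to 0.067. With the replicate number as a block, 41 genes were called, the log2 difference of the ratio was 0.87 (exact sign-flip test, p = 0.25), and 0 transporters passed. The 95% interval of *Slc39a8*, at 38 to 99 counts in a mouse, ran from 39.4% to 79.9% of the control level, against 94.6% to 119.7% for *Slc39a14*.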
